A study of Mus musculus with 16 samples.

Results

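Transcription factors of the ETS family were followed across 5 populations of mouse hematopoietic stem cells (HSCs). The members are 10 genes found by their symbol in the table of counts, *Fli1*, *Erg*, *Etv6*, *Elf1*, *Elf4*, *Gabpa*, *Elk3*, *Elk4*, *Ets1* and *Ets2*, of 46078 genes in all. The rule uses their names and no measured value. The study lists a gene written *Ets* among its lymphoid and myeloid priming genes, chosen on these samples, so the values of *Ets1* are not independent evidence of a direction.

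The study asked how HSCs that differ in MAC-1, the integrin of CD11b (*Itgam*) and CD18 (*Itgb2*), differ in their transcripts during regeneration. All cells were wild-type B6.SJL bone marrow HSCs, sorted as live, lineage-negative cKit+ Sca1+ CD48- CD150+ cells after enrichment for cKit. Steady-state (SS) samples came from mice without transplantation and were sorted as MAC-1- (3 samples) or MAC-1 low (3). The regenerated samples, labelled 4 week, came from recipients irradiated with 900 cGy that had been given 8000 LSK cells (lineage-negative, Sca1+, cKit+) 4 weeks before, and were sorted as MAC-1- (3), MAC-1 low (4) or MAC-1+ (3). The sample records attach the text on transplantation to SS samples too, and the groups here follow the sample titles. Regenerated and SS HSCs thus differ in time, transplantation and an irradiated host at once, which cannot be told apart. The sources used here do not state age, sex or the number of mice behind a sample, and the labels do not say that replicates came from separate animals, so that p-values measure only the spread between these samples.

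ETS factors share a DNA-binding domain that recognizes a GGAA core, most often as CCGGAAGT, and they differ in the protein partners and signals they answer to. ERG and FLI1 work with TAL1, LYL1, LMO2, GATA2 and RUNX1 in blood stem cells, and ERG is needed to maintain HSCs, while FLI1 also drives megakaryocyte genes. ETV6 is a repressor that adult HSCs require, ELF4 is known for control of HSC quiescence, GABPA is the DNA-binding subunit of GABP and acts on many mitochondrial genes, and ELK3 and ELK4 join serum response factor and are phosphorylated by ERK.

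The 16 libraries held 13781278 to 28580658 counts, and a sample had counts for 14533 to 17576 genes. Levels are CPM, counts scaled to the library's size with edgeR's TMM factors, and levels of different genes were compared per kb of exon. The spread between samples of a population was wide, with a common biological coefficient of variation of 1.13 over the 13661 genes tested. *Itgam* followed the sort in its upper range, at 3.8 to 30 CPM in the regenerated MAC-1+ samples and 0 to 4.36 CPM in the 13 others, while *Itgb2* did not separate the populations. Of 10 HSC markers none was at 0 in a whole population. Their summed level ran from 901 to 1020 CPM in regenerated MAC-1- and from 2770 to 4090 CPM in regenerated MAC-1+ samples. The sum of 8 megakaryocyte markers ran from 4170 to 6680 CPM in regenerated MAC-1- and from 136 to 201 CPM in regenerated MAC-1+ samples. That of 8 neutrophil markers was 164, 951 and 7300 CPM in the regenerated MAC-1+ samples, the last in replicate 3, and at most 168 CPM in the 13 others. The part of these markers in the levels of the members was not tested. In sorted bulk RNA, fewer cells that express a gene and less of its RNA per cell cannot be told apart.

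The family was carried by few genes. Per kb of exon, *Fli1* ranked first of the 27 ETS genes in the table (mean 62.8 CPM per kb over the 16 samples), followed by *Elf1* (39.5), *Etv6* (23.1) and *Erg* (17.7). The members held 78.1% to 92.8% of the family's summed CPM per kb, and *Fli1* and *Elf1* alone held 32.5% to 65.5%. Among the members *Elk4* (11.6), *Elk3* (10.5), *Gabpa* (8.51) and *Elf4* (5.68) lay in the middle, and *Ets2* (1.94) and *Ets1* (1.18) were lowest. No member had a sample without counts, although *Ets1* had only 3 counts in an steady-state MAC-1 low sample.

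The order at the top was the same in every population, *Fli1* before *Elf1* by the mean. Samples of these genes did not overlap in steady-state MAC-1 low, regenerated MAC-1-, regenerated MAC-1 low or regenerated MAC-1+ HSCs (in regenerated MAC-1+ HSCs *Fli1* lay at 48.4 to 97.9 and *Elf1* at 22.6 to 47.8 CPM per kb), and they overlapped in steady-state MAC-1- HSCs. *Etv6* was the third in every population but steady-state MAC-1 low, where *Erg* was ahead of it with overlapping samples. *Erg* was the fourth in steady-state MAC-1-, regenerated MAC-1 low and regenerated MAC-1+ HSCs, with samples that overlapped those of *Etv6*. In regenerated MAC-1- HSCs *Erg* was the sixth, at 8.3 CPM per kb, behind *Elk4* (11.1) and *Gabpa* (8.73), with samples that overlapped those of both. *Ets1* was the last in all but steady-state MAC-1- HSCs, where *Ets2* was.

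The sum of the 10 members varied less than any member did. It ran from 153 to 216 CPM per kb over the 16 samples, a 1.42-fold range. Its mean was 174 ± 19.9 (SD, n = 3) in steady-state MAC-1-, 172 ± 7.2 (n = 3) in steady-state MAC-1 low, 192 ± 3.6 (n = 3) in regenerated MAC-1-, 181 ± 8.27 (n = 4) in regenerated MAC-1 low and 193 ± 24.3 (n = 3) in regenerated MAC-1+ HSCs. By contrast single members spanned from 2.56-fold (*Elf1*) to 287-fold (*Ets1*) between their lowest and highest sample.

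**Figure D1:**
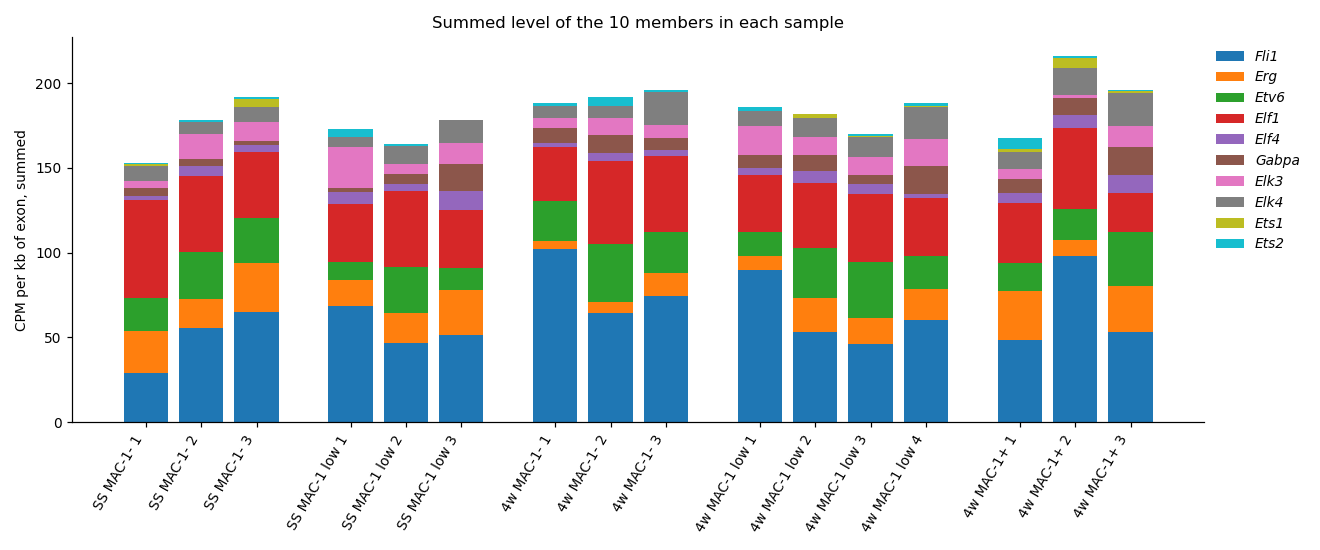
Each bar is a sample, its height the sum of the 10 members in CPM per kb of exon, its colours the members, and samples are grouped by population and numbered by replicate. The bars end between 153 and 216 CPM per kb.

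Within a population, members with high levels were steady and those with low levels were not. The SD of log2 CPM between samples of a population was 0.322 for *Elf1*, 0.456 for *Fli1*, 0.507 for *Etv6*, 0.548 for *Elk4*, 0.573 for *Elf4* and 0.651 for *Erg*. It was 0.789 for *Gabpa*, 0.893 for *Elk3*, 1.84 for *Ets2* and 1.97 for *Ets1*. Set beside genes within 2-fold of its own mean level, *Elf4* had a small spread, since 89.1% of 3736 such genes spread more. For *Fli1* the share was 46.9% of 1433 genes and for *Elk3* 47.1% of 3471 genes. In all, 8 of 10 members spread less than the median of genes at their level.

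**Figure D2:**
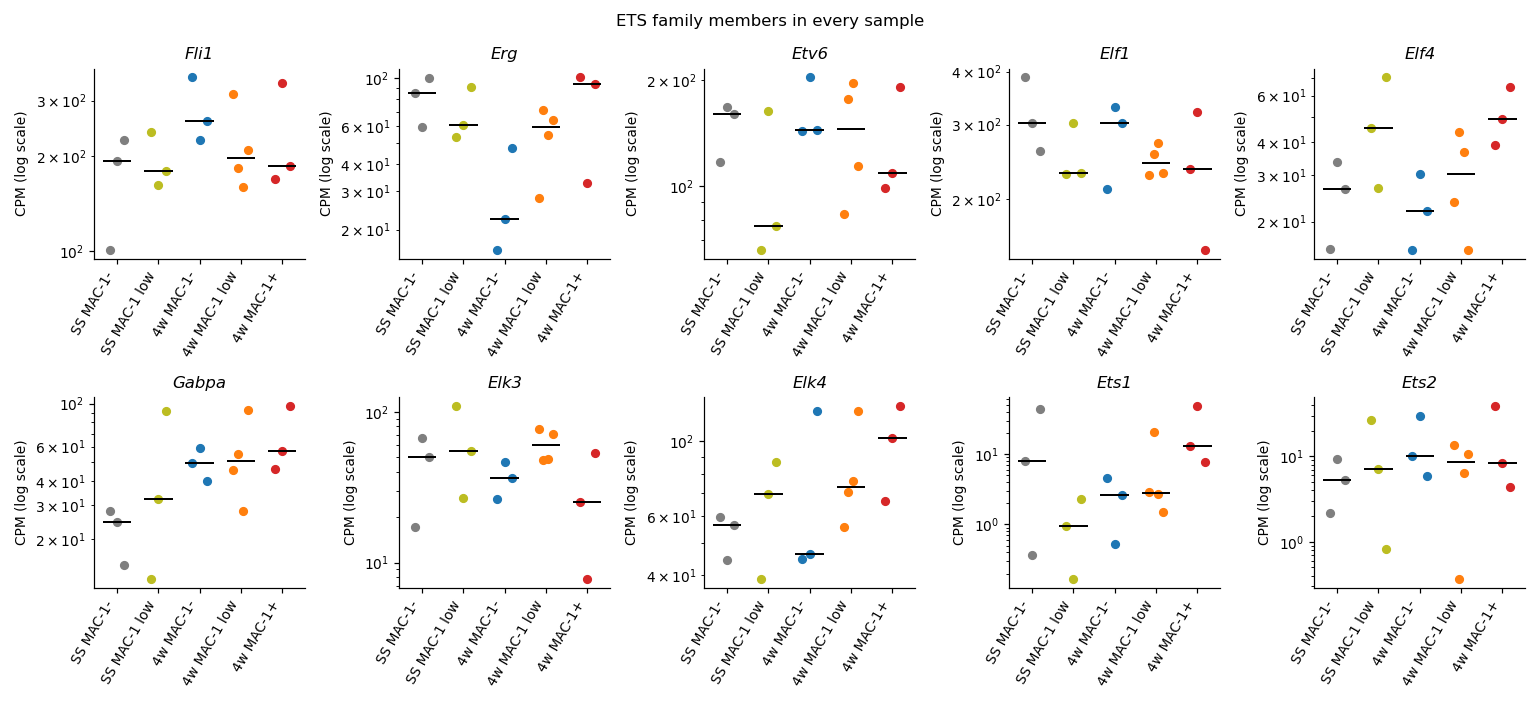
Each panel is a member and each point a sample, with CPM on a log axis and the median of each population as a bar. The regenerated MAC-1- samples lie lowest for *Erg*, at 16.1 to 47.8 CPM, although a regenerated MAC-1 low sample (28) and a regenerated MAC-1+ sample (32.8) lie among them.

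None of the 10 members was called in any comparison by edgeR's quasi-likelihood test, at a Benjamini-Hochberg adjusted p below 0.1 over all 13661 genes. In the F test over the 5 populations 2.22% of all genes were called, and the members' adjusted p ran from 0.447 to 0.981. In regenerated MAC-1+ against regenerated MAC-1- HSCs 3.25% of all genes were called, and members' adjusted p began at 0.249. The share of all genes called was 0.278% in regenerated MAC-1 low against regenerated MAC-1-, 0% in regenerated MAC-1+ against regenerated MAC-1 low, and 0.0146% in steady-state MAC-1 low against steady-state MAC-1- HSCs. It was 0.432% in regenerated against steady-state MAC-1- and 0.0439% in regenerated against steady-state MAC-1 low HSCs. For regenerated MAC-1+ it was 2.36% against steady-state MAC-1- and 1.42% against steady-state MAC-1 low HSCs. The interaction, which tests whether MAC-1 low and MAC-1- HSCs differ in another way at 4 weeks than at SS, called 0.0586%. At such shares, 0 of 10 members says little about the family as such.

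Below the unadjusted p of 0.05 edgeR placed 2 members in regenerated MAC-1+ against regenerated MAC-1- HSCs (*Erg* and *Elf4*, beside 13.4% of all genes). It placed 1 each, beside 8.73% to 14% of all genes, in steady-state MAC-1 low against steady-state MAC-1- (*Ets1*), regenerated against steady-state MAC-1- (*Erg*), regenerated MAC-1+ against steady-state MAC-1- (*Gabpa*), regenerated MAC-1+ against steady-state MAC-1 low (*Ets1*) and the interaction (*Ets1*), and 0 in the remaining 4 tests. DESeq2, the tool of the study, called the same members in those 6 comparisons and no others, and limma-voom called 0 members in all 10, beside 0% to 6.34% of all genes. DESeq2 called 5.38% to 12.5% of all genes in those 6, against 0.0146% to 3.25% by edgeR. Several comparisons share the same samples of a population, so their values are not separate pieces of evidence.

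**Figure D3:**
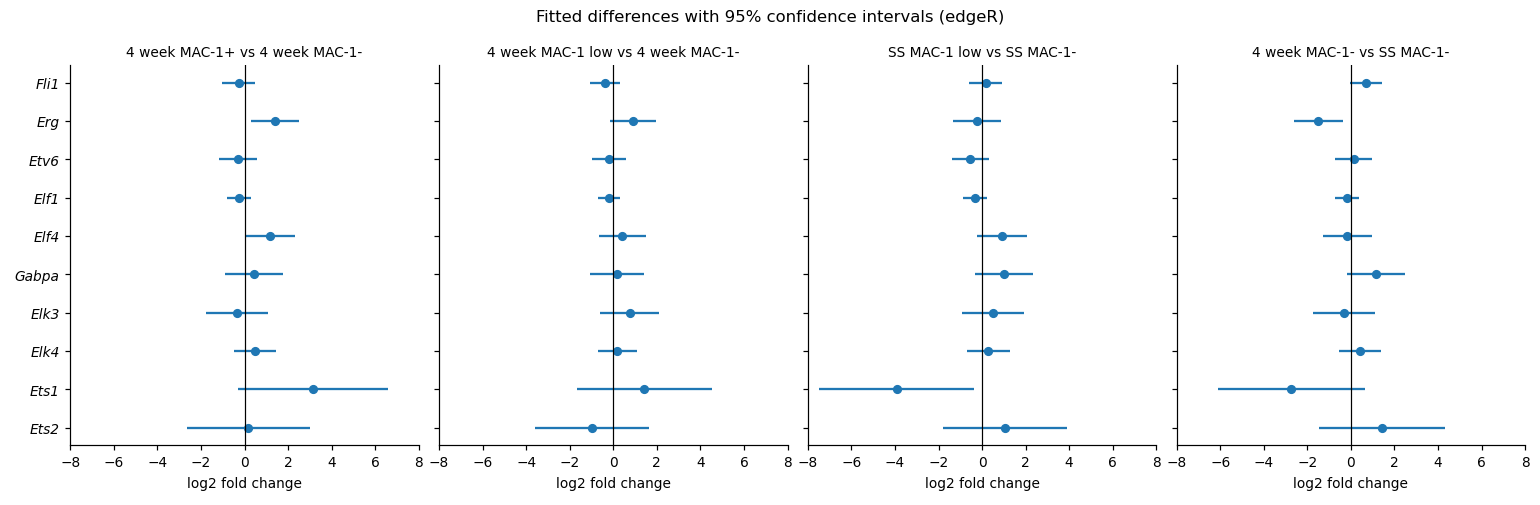
Points are fitted log2 fold changes of each member in 4 comparisons and lines are their 95% confidence intervals from edgeR. The intervals of *Elf1*, *Fli1* and *Etv6* are short and cross 0 in every panel, while those of *Ets1* and *Ets2* are the widest.

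*Erg* (ENSMUSG00000040732, GRCm38 chromosome 16, 95359169 to 95586593, minus strand) had its lowest mean in regenerated MAC-1- HSCs. It stood at 16.1, 22.4 and 47.8 CPM there, at 85, 59.3 and 100 CPM in steady-state MAC-1-, and at 53.5, 60.9 and 91.5 CPM in steady-state MAC-1 low samples. The regenerated MAC-1 low samples had 28, 71.4, 54.8 and 64.3 CPM and the regenerated MAC-1+ samples 101, 32.8 and 94 CPM. All 3 regenerated MAC-1- samples lay below all 3 steady-state MAC-1- samples, while 1 of the regenerated MAC-1+ samples fell among the MAC-1- ones. The log2 fold change of regenerated against steady-state MAC-1- HSCs was -1.50 ± 0.53 (SE, unadjusted p = 0.012, adjusted p = 0.371, edgeR). That of regenerated MAC-1+ against regenerated MAC-1- HSCs was 1.40 ± 0.52 (95% interval 0.28 to 2.52, unadjusted p = 0.0174, adjusted p = 0.249). Between regenerated MAC-1+ and steady-state MAC-1- HSCs it was -0.10, with an interval of -1.2 to 1. DESeq2 called the first (adjusted p = 0.0525) and the second (adjusted p = 0.0496), limma-voom neither (0.272 and 0.171). The megakaryocyte markers were high and the HSC markers low in the same regenerated MAC-1- samples, and their part in the level of *Erg* was not tested.

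*Fli1* (ENSMUSG00000016087, chromosome 9, 32422204 to 32542861, minus strand), the closest relative of *Erg*, was highest in regenerated MAC-1- HSCs by its mean. These samples held 356, 225 and 258 CPM. The steady-state MAC-1- samples held 101, 193 and 226 CPM, the steady-state MAC-1 low samples 238, 162 and 180, the regenerated MAC-1 low samples 314, 184, 160 and 210, and the regenerated MAC-1+ samples 169, 341 and 186 CPM. The populations overlapped throughout, even where regenerated and steady-state MAC-1- HSCs met by 1 CPM (225 and 226). The log2 fold change of regenerated against steady-state MAC-1- HSCs was 0.69 ± 0.35 (SE, interval -0.06 to 1.44, adjusted p = 0.506). Between regenerated MAC-1+ and regenerated MAC-1- HSCs it was -0.27 ± 0.35, with an interval of -1.02 to 0.48 that leaves room for a 2-fold lower level but not for a 2-fold higher one.

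*Erg* and *Fli1* took opposite places from sample to sample. Pearson's r of their log2 CPM was -0.71 over the 16 samples (Spearman's rho -0.64), the lowest of the 45 pairs of members. It was -0.62 for deviations from the population means and -0.63 without the 2 samples farthest from the median of *Fli1*. The points share library, depth and scaling, and r is given here as a description. The samples with the lowest *Erg* outside regenerated MAC-1- HSCs were regenerated MAC-1+ replicate 2 (32.8 CPM, with *Fli1* at 341) and regenerated MAC-1 low replicate 1 (28 CPM, with *Fli1* at 314), both from populations where *Erg* was otherwise high.

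**Figure D4:**
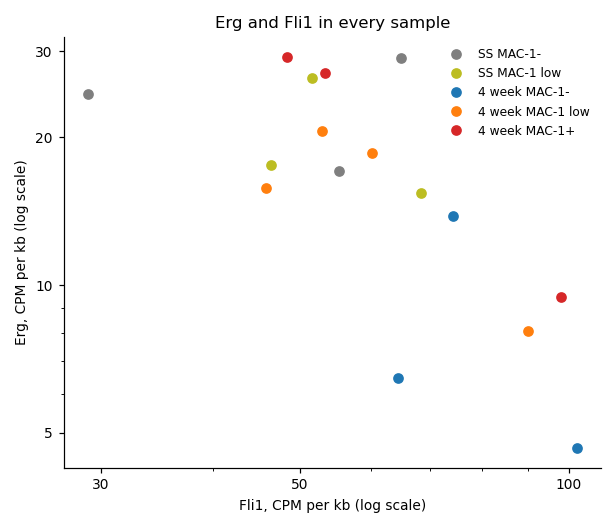
Each point is a sample, with *Fli1* on the horizontal and *Erg* on the vertical axis, both in CPM per kb of exon on log axes and coloured by population. Samples with high *Fli1* have low *Erg*, and r of the log2 CPM is -0.71 over 16 samples.

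Since a ratio of genes within a sample does not depend on scaling, the ratio *Erg*/*Fli1* was taken per kb, a measure chosen after the levels had been seen. It was 0.847, 0.309 and 0.446 in steady-state MAC-1-, 0.226, 0.378 and 0.511 in steady-state MAC-1 low, and 0.0457, 0.1 and 0.186 in regenerated MAC-1- samples. It was 0.0896, 0.39, 0.345 and 0.308 in regenerated MAC-1 low and 0.604, 0.0967 and 0.508 in regenerated MAC-1+ samples. *Fli1* exceeded *Erg* in all 16, and every regenerated MAC-1- sample had less *Erg* per *Fli1* than any SS sample of either population. The log2 ratio of regenerated MAC-1- HSCs lay 2.37 below that of steady-state MAC-1- HSCs (-3.40 ± 1.02 against -1.03 ± 0.74, SD, n = 3 each, exact permutation p = 0.1, the smallest that 3 against 3 allows). Over the 24 ratio tests made, that p adjusted to 0.628, and regenerated MAC-1+ against regenerated MAC-1- HSCs had a difference of 1.71 (exact permutation p = 0.3), or 2.55 without regenerated MAC-1+ replicate 2.

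Among 7 tested genes that FLI1 is known to activate in megakaryocytes, 3 were lower and 0 higher in regenerated MAC-1+ than in regenerated MAC-1- HSCs. The list's median was -3.71 on the log2 scale, beside 0.07 over all tested genes. *Pf4*, a platelet chemokine, fell by 5.25 (adjusted p = 4.5e-05), from 4960 ± 1310 to 130 ± 26 CPM. *Itga2b*, the platelet integrin CD41, fell by 3.71 (adjusted p = 0.0125, and 0.137 with no filter on low counts). *Gp1bb*, a subunit of the receptor for von Willebrand factor, went from 120 ± 20.7 CPM to 0 counts in all 3 MAC-1+ samples (adjusted p = 0.00661), where 3 counts would be 0.119 to 0.188 CPM. The study had itself named *Pf4* and *Itga2b* from these samples, so this count is not independent evidence, and *Pf4*, *Itga2b* and *Gp1bb* are also among the megakaryocyte markers. *Fli1* itself differed by less than its spread in that comparison, as given above.

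Of 10 partners of ERG and FLI1 in the stem cell complex 1 was called. *Lyl1* had 9.88 ± 4.8 CPM in regenerated MAC-1- and 32.4 ± 6.98 CPM in regenerated MAC-1+ HSCs, a log2 fold change of 1.71 ± 0.49 (adjusted p = 0.0969). The call held in 2 of 9 other settings (adjusted p up to 0.42) and in 0 of 16 fits without a sample (up to 0.321). The other partners were not called, among them *Lmo2* (0.61 ± 0.18, adjusted p = 0.127), *Tal1* (0.04 ± 0.34), *Runx1* (0.10 ± 0.50) and *Gata2* (0.34 ± 0.40), and the median over the list was 0.29. Of 10 tested genes with ETS-bound enhancers in endothelium and HSCs 0 were called in that comparison by edgeR (4 at an unadjusted p below 0.05), with a median of 0.73. *Mmrn1*, a secreted multimerin, was called over the 5 populations (adjusted p = 0.0355), at 315 CPM in steady-state MAC-1- and 89.7 CPM in regenerated MAC-1+ HSCs by the mean.

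*Erg* has *Ets2* as its neighbour on chromosome 16, and *Fli1* has *Ets1* on chromosome 9. The genes of each pair point away from each other, 115.5 kb apart for *Erg* and *Ets2* and 93.4 kb apart for *Fli1* and *Ets1*, with 0 protein-coding genes between them. Neighbours did not share a pattern, as r over the 16 samples was -0.39 for *Erg* with *Ets2* and 0.13 for *Fli1* with *Ets1*.

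*Etv6* (ENSMUSG00000030199, chromosome 6, 134035700 to 134270158, plus strand) had overlapping samples in all populations. It stood at 117, 168 and 160 CPM in steady-state MAC-1-, 65.6, 163 and 76.6 in steady-state MAC-1 low, and 143, 204 and 144 in regenerated MAC-1- samples. The regenerated MAC-1 low samples had 82.9, 177, 196 and 114 CPM and the regenerated MAC-1+ samples 98.6, 109 and 191 CPM. The log2 fold change of regenerated MAC-1+ against regenerated MAC-1- HSCs was -0.30 ± 0.40 (interval -1.15 to 0.55, adjusted p = 0.859). Of 4 tested corepressors that work with ETV6 0 were called by edgeR (0 at an unadjusted p below 0.05), with a median of -0.46. Among them *Ncor1* had -0.53 ± 0.44 (adjusted p = 0.699).

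*Elf1* (ENSMUSG00000036461, chromosome 14, 79481194 to 79582494, plus strand) was the steadiest member. Its samples held 388, 303 and 260 CPM in steady-state MAC-1-, 229, 302 and 231 in steady-state MAC-1 low, 212, 330 and 302 in regenerated MAC-1-, 228, 256, 272 and 231 in regenerated MAC-1 low, and 236, 322 and 152 in regenerated MAC-1+ HSCs. The populations overlapped. The interval of its log2 fold change stayed within 1 of 0 in all 9 pairwise and interaction tests, so that a 2-fold difference lay outside each of them. It was -0.25 (-0.81 to 0.31) in regenerated MAC-1+ against regenerated MAC-1- HSCs and -0.42 (-0.98 to 0.14) in regenerated MAC-1+ against steady-state MAC-1- HSCs. Exons of *Elf1* share 327 bases with *Wbp4* on the other strand, and the kit does not mark strand. *Wbp4* had 25.7% as many counts as *Elf1*.

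*Elf4* (ENSMUSG00000031103, X chromosome, 48411046 to 48463132, minus strand) had its highest mean in regenerated MAC-1+ HSCs. The samples held 39, 48.8 and 64.6 CPM there, 15.6, 30.2 and 22 CPM in regenerated MAC-1- and 23.8, 43.8, 36.7 and 15.6 CPM in regenerated MAC-1 low HSCs. At SS they held 15.8, 33.5 and 26.5 CPM in MAC-1- and 45.4, 26.8 and 70.5 CPM in MAC-1 low HSCs. The regenerated MAC-1+ and regenerated MAC-1- samples did not overlap. That held for 2 of 10 members (*Elf4* and *Ets1*), beside 21.7% of all genes tested, a share near the background. The log2 fold change was 1.17 ± 0.54 (interval 0.01 to 2.33, unadjusted p = 0.0486, adjusted p = 0.369), and DESeq2 called it (adjusted p = 0.0746). Against *Elf1* in the same sample, *Elf4* per kb was 0.181, 0.166 and 0.466 of its paralog in regenerated MAC-1+ and 0.0804, 0.1 and 0.0802 in regenerated MAC-1- samples. These did not overlap either, with a difference of 1.48 in the log2 ratio (exact permutation p = 0.1, the smallest possible, 0.628 over the 24 ratio tests).

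*Gabpa* (ENSMUSG00000008976, chromosome 16, 84834925 to 84863779, plus strand) had its lowest mean in steady-state MAC-1- HSCs. Its samples held 28.1, 24.5 and 14.8 CPM there and 12.5, 32.1 and 91.2 CPM in steady-state MAC-1 low HSCs. At 4 weeks they held 49.5, 59.3 and 40.1 CPM in MAC-1-, 45.7, 55, 28.1 and 93.2 CPM in MAC-1 low, and 46.1, 57.3 and 97.1 CPM in MAC-1+ HSCs. All steady-state MAC-1- samples lay below all regenerated MAC-1- and all regenerated MAC-1+ samples. Between regenerated and steady-state MAC-1- HSCs the samples of 2 of 10 members did not overlap (*Gabpa* higher and *Erg* lower), beside 16.6% of all genes tested. The log2 fold change was 1.14 ± 0.63 there (interval -0.2 to 2.49, adjusted p = 0.538) and 1.57 ± 0.64 for regenerated MAC-1+ against steady-state MAC-1- HSCs (interval 0.21 to 2.93, unadjusted p = 0.0262, adjusted p = 0.289). DESeq2 called the latter (adjusted p = 0.0834). Exons of *Gabpa* share 397 bases with *Atp5j* on the other strand, a gene with 3381% as many counts, and how such reads were assigned is not stated.

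GABP binds DNA through GABPA and activates through a beta subunit. Neither beta subunit was called by edgeR, nor had an unadjusted p below 0.05, in regenerated MAC-1+ against regenerated MAC-1- HSCs (*Gabpb1* -0.10 ± 0.63 and *Gabpb2* 0.70 ± 1.05). Of 10 known mitochondrial targets of GABP 4 fell and 0 rose, with a median of -0.58 beside 0.07 over all tested genes. *Sdhb*, a subunit of succinate dehydrogenase, fell by 1.23 (adjusted p = 0.0385), and the cytochrome c oxidase subunits *Cox5b* by 0.90 (0.04), *Cox6c* by 0.76 (0.0371) and *Cox7c* by 0.80 (0.0969). From these samples the study had itself reported oxidative phosphorylation genes as enriched in regenerated MAC-1- HSCs. These 4 subunits belong to that process, so their calls are not independent evidence. *Gabpa* had a fold change of the other sign in that comparison, 0.43 ± 0.62. None of these 4 was called in a fit of only the groups compared, and their highest adjusted p over 9 other settings was 0.129 to 0.22. Of those 9 settings, 8 called *Sdhb*, 8 *Cox6c*, 7 *Cox5b* and 3 *Cox7c*. Of 16 fits without a sample, 13 called *Sdhb*, 12 *Cox6c*, 12 *Cox5b* and 1 *Cox7c*.

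*Elk4* (ENSMUSG00000026436, chromosome 1, 132007607 to 132032612, plus strand) followed *Gabpa* more than any other member did. Its samples held 59.6, 44.5 and 56.2 CPM in steady-state MAC-1-, 39, 69.7 and 86.5 in steady-state MAC-1 low, 44.8, 46.2 and 123 in regenerated MAC-1-, 55.8, 70.4, 76.1 and 123 in regenerated MAC-1 low, and 66.6, 102 and 127 CPM in regenerated MAC-1+ HSCs. The regenerated MAC-1+ samples lay above all steady-state MAC-1- samples, with a log2 fold change of 0.89 ± 0.46 (interval -0.09 to 1.86, adjusted p = 0.405), and overlapped the regenerated MAC-1- samples (0.47 ± 0.46). In regenerated MAC-1+ against steady-state MAC-1- HSCs 3 of 10 members did not overlap (*Elf4*, *Gabpa* and *Elk4*). The share over all genes was not counted for that comparison. Where it was counted, in the comparisons given above, it was 16.6% and 21.7%, so this count says little about the members. Pearson's r of *Gabpa* with *Elk4* was 0.62 over 16 samples (Spearman's rho 0.60), the highest of the 45 pairs. It was 0.49 for deviations from the population means and 0.44 without the 2 samples farthest from the median of *Elk4*.

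RefSeq gave 14 promoters for 8 of the members (GRCm38.p6, 250 bases before to 50 bases after a start). *Ets1* and *Fli1* had no entry. The core CCGGAA, searched on both strands, was in 2 of the 14, 1 each of *Gabpa* and *Elk4*. It was in 14.9% of all 32851 promoters of that length, so the share among the members was near the background. The longer CCGGAAGT, which contains the core, was in 1 of 14 (*Elk4*) and in 3.89% of all. AGGAAGT was in 4 of 14, which belong to 2 members (*Elk4* and *Gabpa*), and in 9.35% of all. GATAA, which does not contain GGAA, was in 1 of 14 (*Erg*) and 25.4% of all. The bare GGAA, which the motifs other than GATAA contain, was in 14 of 14 and 96.0% of all. The 2 promoters with the core are shown 5′ to 3′ on the plus strand, with the core in capitals. Counted from the start, it begins at -92 in *Gabpa*, where it reads on the minus strand, and at -68 in *Elk4*. These are matches of letters, and binding was not measured.
Gabpa, chr16:84834874-84835173, plus strand: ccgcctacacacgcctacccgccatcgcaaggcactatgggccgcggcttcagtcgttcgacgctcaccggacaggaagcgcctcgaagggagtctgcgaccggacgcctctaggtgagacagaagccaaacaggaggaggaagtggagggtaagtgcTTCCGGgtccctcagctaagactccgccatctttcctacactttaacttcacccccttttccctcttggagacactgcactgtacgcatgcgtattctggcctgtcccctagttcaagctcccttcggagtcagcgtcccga
Elk4, chr1:132007370-132007669, plus strand: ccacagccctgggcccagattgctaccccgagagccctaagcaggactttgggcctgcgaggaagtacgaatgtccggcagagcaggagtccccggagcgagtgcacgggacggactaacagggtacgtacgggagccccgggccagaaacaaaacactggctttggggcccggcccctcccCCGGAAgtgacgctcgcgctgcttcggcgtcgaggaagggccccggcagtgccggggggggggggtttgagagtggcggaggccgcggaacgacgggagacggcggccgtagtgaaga

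*Elk3* (ENSMUSG00000008398, chromosome 10, 93247414 to 93311135, minus strand) had its lowest mean in regenerated MAC-1+ HSCs. Its samples held 25.4, 7.79 and 53.6 CPM there and 77.1, 47.9, 48.5 and 71.7 CPM in regenerated MAC-1 low HSCs. They held 26.5, 46.3 and 36.2 CPM in regenerated MAC-1-, 17.1, 66.9 and 49.8 in steady-state MAC-1- and 109, 26.8 and 54.9 in steady-state MAC-1 low HSCs. A single regenerated MAC-1+ sample, replicate 2, set the low mean. The log2 fold change of regenerated MAC-1+ against regenerated MAC-1 low HSCs was -1.08 ± 0.64 (interval -2.45 to 0.29, adjusted p = 0.814), and against regenerated MAC-1- HSCs it was -0.33 ± 0.67. *Elk3* shares 316 exon bases with *Cdk17* on the other strand, which had 522% as many counts. The log2 ratio of *Elk3* to its paralog *Elk4* was lower in regenerated MAC-1+ than in regenerated MAC-1 low HSCs by 1.74 (-1.62 ± 1.39, n = 3, against 0.12 ± 0.57, n = 4, exact permutation p = 0.0286, the smallest possible, 0.628 over the 24 tests). Without regenerated MAC-1+ replicate 2 the difference was -0.94.

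**Figure D5:**
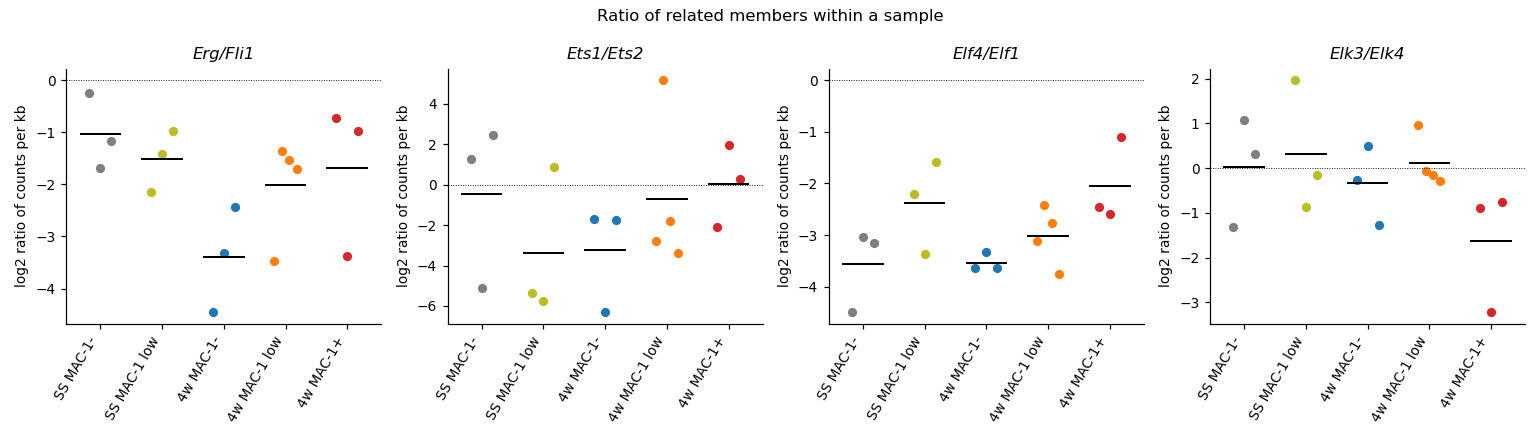
Panels show the log2 ratio of counts per kb of 4 pairs of related members, points are samples and bars are means of a population. *Erg*/*Fli1* is below 0 in all 16 samples and lowest in regenerated MAC-1- HSCs, and *Ets1*/*Ets2* spreads the most.

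Lists around ELK3 and ELK4 held 1 call. Of 3 tested genes for serum response factor and its cofactors 0 were called by edgeR in regenerated MAC-1+ against regenerated MAC-1- HSCs (*Mrtfb*, a cofactor, 1.29 ± 0.79, and *Mrtfa*, another, 1.04 ± 1.66). Of 9 genes of the cascade from RAS to ERK 0 were called, with a median of 0.43. Of 7 tested genes of ERK feedback 0 were called. At an unadjusted p below 0.05 these 3 lists held 0, 0 and 1 genes. *Dusp4*, a phosphatase that acts on ERK, was at 0.0209 ± 0.0362 CPM in regenerated MAC-1- and 4.39 ± 5.56 CPM in regenerated MAC-1+ HSCs (adjusted p = 0.278), and *Spred1*, a RAS inhibitor, had 0.38 ± 0.51. Of 8 tested immediate-early genes, targets of serum response factor and ELK proteins, edgeR called 1 higher and 0 lower in that comparison. Of all genes 3.25% were called there in either direction. The called gene was *Fos*, a subunit of AP-1, which rose by 0.95 ± 0.16 (adjusted p = 0.00661), from 948 ± 159 to 1840 ± 110 CPM. *Egr2* went from 1.29 ± 1.78 CPM to 0 in every MAC-1+ sample (adjusted p = 0.391), and the other tested genes of the list had positive fold changes. *Egr1* had 0.74 ± 0.30 (adjusted p = 0.287), and the median over that list was 0.74 (0.73 with a gene at 0 set to its floor).

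*Ets1* (ENSMUSG00000032035, chromosome 9, 32636221 to 32757820, plus strand), known from lymphoid cells, varied the most of all members. The steady-state MAC-1- samples held 7.92, 0.367 and 43.3 CPM and the steady-state MAC-1 low samples 0.939, 0.168 and 2.27 CPM. At 4 weeks the MAC-1- samples held 4.64, 0.531 and 2.6, the MAC-1 low samples 2.88, 20.7, 2.67 and 1.5, and the MAC-1+ samples 13.2, 48.2 and 7.83 CPM. The steady-state MAC-1- samples thus spanned 118-fold, and a sample of theirs was as low as steady-state MAC-1 low HSCs. The regenerated MAC-1+ samples lay above those of regenerated MAC-1- and of steady-state MAC-1 low HSCs. Their log2 fold changes were 3.15 ± 1.61 (interval -0.28 to 6.59, unadjusted p = 0.0694, adjusted p = 0.417) and 4.35 ± 1.71 (interval 0.71 to 7.99, unadjusted p = 0.0222, adjusted p = 0.332). Against steady-state MAC-1 low HSCs *Ets1* was the only 1 of 10 members without overlap, and the share over all genes was not counted there. In the comparisons where it was counted it was 16.6% and 21.7%, so this lack of overlap does not set *Ets1* apart. steady-state MAC-1 low against steady-state MAC-1- HSCs gave -3.92 ± 1.67 (unadjusted p = 0.0331, adjusted p = 0.521). The interaction was 5.35 ± 2.20 (unadjusted p = 0.0283, adjusted p = 0.503). DESeq2 called the second, the third and the interaction (adjusted p = 0.0205, 0.0653 and 0.0757). Single samples set the size of these differences. Without regenerated MAC-1+ replicate 2 the first was 2.05, and without steady-state MAC-1- replicate 3 the third was -1.87 and the interaction 3.30 (-2.23 and 3.18 with limma-voom). With any 1 sample left out edgeR called none of the latter 3, at adjusted p of 0.274 to 0.787.

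The sum of 10 T cell markers was 0 to 53 CPM in the 16 samples, and *Trbc1* was at 0 in all of them. The sample with the highest *Ets1* (48.2 CPM) had a sum of 23.3 CPM. The next, steady-state MAC-1- replicate 3 (*Ets1* at 43.3 CPM), had 37.9 CPM, while the one with the highest sum (53 CPM) had *Ets1* at 2.88 CPM. The sum of 6 B cell markers was 119 CPM in the sample with the highest *Ets1* and 15.1 and 16.2 CPM in the other regenerated MAC-1+ samples. Its highest value, 156 CPM, was in a steady-state MAC-1 low sample with *Ets1* at 0.939 CPM. Of 7 markers of NK cells *Ncr1* was at 0 in all samples, and the sum was 16 to 176 CPM in regenerated MAC-1+ and 323 to 642 CPM in regenerated MAC-1- HSCs. Nearly all of it was *Nkg7* there, with means of 78.5 and 447 CPM. The part of such cells in *Ets1* was not tested beyond these values. The genes most like *Ets1* over the 16 samples, of 8020 with a mean of at least 10 CPM, were *mt-Nd6* (Pearson's r of log2 CPM 0.86), *mt-Nd2* (0.84) and *Dpy19l4* (0.80). *Ets1* was taken for this since edgeR called no member in the F test and *Ets1* had the smallest p there.

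*Ets2* (ENSMUSG00000022895, chromosome 16, 95702075 to 95721051, plus strand), the paralog of *Ets1* and a target of ERK signals, had no order by population. It held 2.2, 9.22 and 5.28 CPM in steady-state MAC-1-, 26.7, 7.1 and 0.825 in steady-state MAC-1 low, and 10.2, 29.5 and 5.86 in regenerated MAC-1- samples. The regenerated MAC-1 low samples held 13.7, 0.367, 6.38 and 10.6 CPM and the regenerated MAC-1+ samples 38.8, 8.35 and 4.35 CPM. Its log2 fold change in regenerated MAC-1+ against regenerated MAC-1- HSCs was 0.18 ± 1.33 (interval -2.65 to 3), which allows a difference of over 2-fold in either direction, and it turned to -1.26 without regenerated MAC-1+ replicate 1. *Ets1* exceeded *Ets2* per kb in 6 of 16 samples, with a ratio between 0.0127 and 36.2.

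Besides the members the table holds 17 ETS genes, of which 8 passed the filter on low counts, and 1 was called in regenerated MAC-1+ against regenerated MAC-1- HSCs. That was *Spi1*, which encodes the myeloid and lymphoid regulator PU.1, with 3.76 ± 3.35 CPM in regenerated MAC-1- and 52.5 ± 5.24 CPM in regenerated MAC-1+ HSCs (log2 fold change 3.80 ± 0.65, adjusted p = 0.00676, and 0.105 in a fit of only those groups). Its mean was 32.6, 37.9 and 37.2 CPM in steady-state MAC-1-, steady-state MAC-1 low and regenerated MAC-1 low HSCs, and it was the fifth of the family per kb over all samples. The study had named *Spi1* from these samples. None of the 10 members had so small an adjusted p, and whether *Spi1* differed from them was not tested.

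Over the members as a group, the median log2 fold change was 0.304 in regenerated MAC-1+ against regenerated MAC-1- HSCs, beside 0.0674 over all tested genes, with 6 members higher and 4 lower. It was 0.176 beside 0.0466 in regenerated MAC-1 low against regenerated MAC-1-, 0.221 beside 0 in steady-state MAC-1 low against steady-state MAC-1-, and -0.00872 beside -0.0284 in regenerated against steady-state MAC-1- HSCs.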

How the data were processed

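The members and gene lists were chosen with earlier results of these data known. RNA of sorted HSCs was made into libraries with SMART-Seq v4 and Nextera XT, which mark neither strand nor molecule, and sequenced on a NextSeq. The authors deposited 1 table of raw counts per gene (46078 genes, 16 samples), aligned by STAR within nf-core's RNA-seq workflow, and their processing notes name DESeq2. Counter, build, annotation and the versions of STAR and DESeq2: not given in the sources used here. Gene IDs were placed with GENCODE M21 on GRCm38 (98.2% matched).

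Genes were filtered with filterByExpr (13661 kept) and fitted with edgeR 4.0.16 (R 4.3.3), with TMM factors and a robust quasi-likelihood test over all 16 samples. A gene was called at a Benjamini-Hochberg adjusted p below 0.1 over all genes tested. Samples of a population differed far beyond counting noise in all 18 pairs (chi-square per degree of freedom 120 to 291), so none was counted as a repeat. A floor of 3 counts was 0.112 to 0.22 CPM, and it covers counting error only.

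All 10 members are named. Of a list, up to 4 called genes are named by p, otherwise up to 2 with the smallest p, as values, and *Spi1* always, except that a few genes the rule names are not reported here. *Tal1*, *Runx1* and *Gata2* were added after their values were seen, as was the test of ratios between members (exact permutation of samples). DESeq2 1.42.0, limma 3.58.1 (voom with sample weights), other scalings, filters and thresholds, thinned counts, detected genes as a covariate, a replicate block, fits of only the groups compared and fits without each sample were alternatives. The scripts were tested on simulated data.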

Additional observations from a re-analysis of the deposited data

Results flagged for a closer look

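*Ets1* stood at 20.7 CPM in MAC-1 low replicate 2 of the 4 week samples, far from the other 3 of its population (1.5, 2.67 and 2.88 CPM), by Dixon's test at 95%. Only the population of 4 samples was tested, with 1 test for each of the 10 members, and chance flags about 1 in 20. The same sample had the lowest *Ets2* of the 16, at 0.367 CPM.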

How the results depend on the processing

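The count of members called by edgeR was 0 in all 10 comparisons, and stayed 0 under every alternative run but DESeq2. Without any 1 replicate it ranged from 0 to 0. DESeq2 called 2 members in regenerated MAC-1+ against regenerated MAC-1- HSCs (*Erg* and *Elf4*) and 1 each in 5 others: steady-state MAC-1 low against steady-state MAC-1- (*Ets1*), regenerated against steady-state MAC-1- (*Erg*), regenerated MAC-1+ against steady-state MAC-1- (*Gabpa*), regenerated MAC-1+ against steady-state MAC-1 low (*Ets1*) and the interaction (*Ets1*). Single values were followed for all 10 members in regenerated MAC-1+ against regenerated MAC-1- HSCs, for the members that DESeq2 called elsewhere and for 4 differences of ratios. Of these, 390 kept direction and side of the threshold, 7 passed it with DESeq2 and 7 changed sign. Over all 9 pairwise and interaction comparisons, 36 of 90 fold changes of members took the other sign in at least 1 alternative or left-out fit. *Ets2* (0.18) turned to -0.39 with limma-voom and -0.34 with the replicate block, and ranged from -1.26 to 1.1 without 1 replicate. *Elf1* (-0.25) ranged from -0.51 to 0.02 and *Elk3* (-0.33) from -1.1 to 0.15 without 1 replicate. The cause was not tested.

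Deviations of 30 same-numbered pairs had r of -0.02 to 0.04, and those of 72 other pairs -0.03 to 0.03. The replicate numbers were taken from the sample titles. Among the regenerated samples the library labels run in another order, so these values cannot decide whether samples were sorted in sets. Pairing by library label was not tested. With the replicate number as a replicate block 0 members were called in all 10 comparisons. With 3 or 4 samples a population and a wide spread, the intervals of *Ets1* and *Ets2* are the widest, and levels of a few counts set the lowest values of both.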
